A study of Mus musculus with 16 samples.

Results

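The collagen genes of cultured murine tracheal epithelial cells (MTECs) are described here across 16 RNA-seq libraries. Members were the protein-coding genes whose symbol is Col, a number, a and a number, with symbols mapped from the Ensembl identifiers of the count table. This gave 44 genes of 49315 identifiers, of which 21811 were protein-coding. They comprised 11 fibrillar collagens, 6 chains of the type IV network of basement membranes, 3 other collagens of the basement membrane zone, 4 transmembrane collagens, 9 fibril-associated collagens (FACIT), 6 beaded filament collagens, 3 short-chain collagens and 2 others. The MTECs came from male and female mice, either WT or LMAN1 KO littermates on a C57BL/6J background, and were left naive or exposed overnight to house dust mite (HDM) at 20 µg/ml. Sex, genotype and treatment made 8 groups with 2 biological replicates in each, and ages were not given for these cultures. Tracheas of several mice were pooled, and the cells were grown at an air-liquid interface on inserts coated with basement membrane laid down by 3T3 cells, a mouse fibroblast line. The comparisons ask how the collagen genes of an airway epithelium respond to the allergen, and whether LMAN1 status or sex alters that response.

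Collagens are extracellular proteins built from 3 chains that wind into a triple helix. Fibrillar collagens are mostly made by fibroblasts and give tissue its tensile strength, whereas type IV collagen forms the sheet on which epithelia rest, and types VII, XVII and XVIII tie basal epithelial cells to that sheet and to the matrix below. Procollagen is hydroxylated and folded in the endoplasmic reticulum (ER), leaves it in unusually large transport carriers, and is trimmed and cross-linked outside the cell. LMAN1 is a lectin receptor that carries other glycoproteins along the same route out of the ER.

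The table gave raw counts, with 21860698 to 43442188 counts per library, and levels are written as CPM, counts relative to a library size scaled with TMM factors. Lman1 itself was measured at 101 to 144 CPM in the 8 libraries labelled WT. In the libraries labelled KO it was 12.8 and 12.8 CPM in naive female, 14.2 and 63.4 in naive male, 66.6 and 78.1 in HDM-treated female and 65 and 66 in HDM-treated male MTECs. Lman1 counts were thus retained in the libraries labelled KO, and in females rose there with HDM (log2 fold change 2.5 ± 0.48, adjusted p = 0.00744, edgeR). Every genotype direction given here is a direction between labels. Epithelial genes were high in all 16 libraries, with Epcam at 315 to 631 CPM and Krt5, a basal cell keratin, at 628 to 5868 CPM. Scgb1a1, a defining gene of club cells, did not exceed 3.75 CPM. It is 1 of 8 secretory markers, whose summed level was nevertheless high. That sum ran from 3829 CPM in female WT HDM replicate 2 to 20754 CPM in replicate 2 of HDM-treated males labelled KO. The female WT HDM pair stood apart from the other libraries. There the summed level of 6 general epithelial genes was 8806 and 9119 CPM against 4344 and 4843 CPM in naive cultures, while 6 of 8 basal, 8 of 8 secretory and 4 of 8 ciliated cell markers fell in the test of the HDM response, in which 22.4% of all tested genes fell. Female HDM libraries labelled KO shifted the same way for general epithelial and secretory genes, with sums of 6955 and 6447 CPM against 4213 and 4795 CPM in naive cultures for the first. There 5 of 8 secretory, 2 of 8 ciliated and 1 of 8 basal markers fell with HDM, beside 5.77% of all tested genes. Whether these shifts had a part in the collagen responses of these groups was not tested.

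Collagen genes have an unusual exon structure, and any effect of it on the counts was not tested. In GENCODE M21, 23.4% of the 2004 coding exons of the 44 genes were exactly 54 bp long, compared with 0.67% of 199005 coding exons of all protein-coding genes. The share was 47.0% in the fibrillar class and 4.05% in the type IV class. Exons whose length was a multiple of 9 bp made up 61.83% of collagen coding exons and 14.49% of all coding exons. The 3 short-chain genes had 2 coding exons each.

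The level of each gene per kb of its exons was used to compare genes with each other. Col17a1, the transmembrane collagen of hemidesmosomes, ranked first, with a mean of 62.8 CPM per kb over the 16 libraries and a range from 25.8 to 91.4. Col18a1, the source of endostatin, followed with a mean of 45.3 CPM per kb and a range from 13.0 to 158. Col4a5 came next with 18.2, and its lowest library, 11.5, lay above the mean of every collagen ranked below it. The next ranks were held by Col8a1 at 8.12, Col4a1 at 5.70, Col1a1 at 5.42, Col4a2 at 5.37, Col4a6 at 5.10 and Col7a1 at 5.08 CPM per kb. Of these, the mean of Col8a1 lay above the highest library of Col7a1 (6.73), and their ranges over the 16 libraries overlapped. In 13 of 16 libraries the same order of Col17a1, Col18a1 and Col4a5 led the summed collagen CPM. The exceptions were female WT naive replicate 2, where Col1a1 took the second place with 14.1% of collagen counts, and the HDM-treated female WT libraries, in both of which Col18a1 came first with 40.7% and 32.9%.

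At the low end, 9 members did not pass the filter on low counts. Col13a1, Col19a1, Col6a4, Col6a5 and Col6a6 had at most 3 counts in each library. Col14a1, Col24a1, Col9a1 and Col9a2 reached at most 15 counts. The remaining 35 members were tested. Of these, Col22a1, with at most 14 counts, Col26a1, Col23a1, Col25a1, Col28a1 and Col8a2 stayed at or under 35 counts in every library, so folds of these genes rest on few reads.

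**Figure D1:**
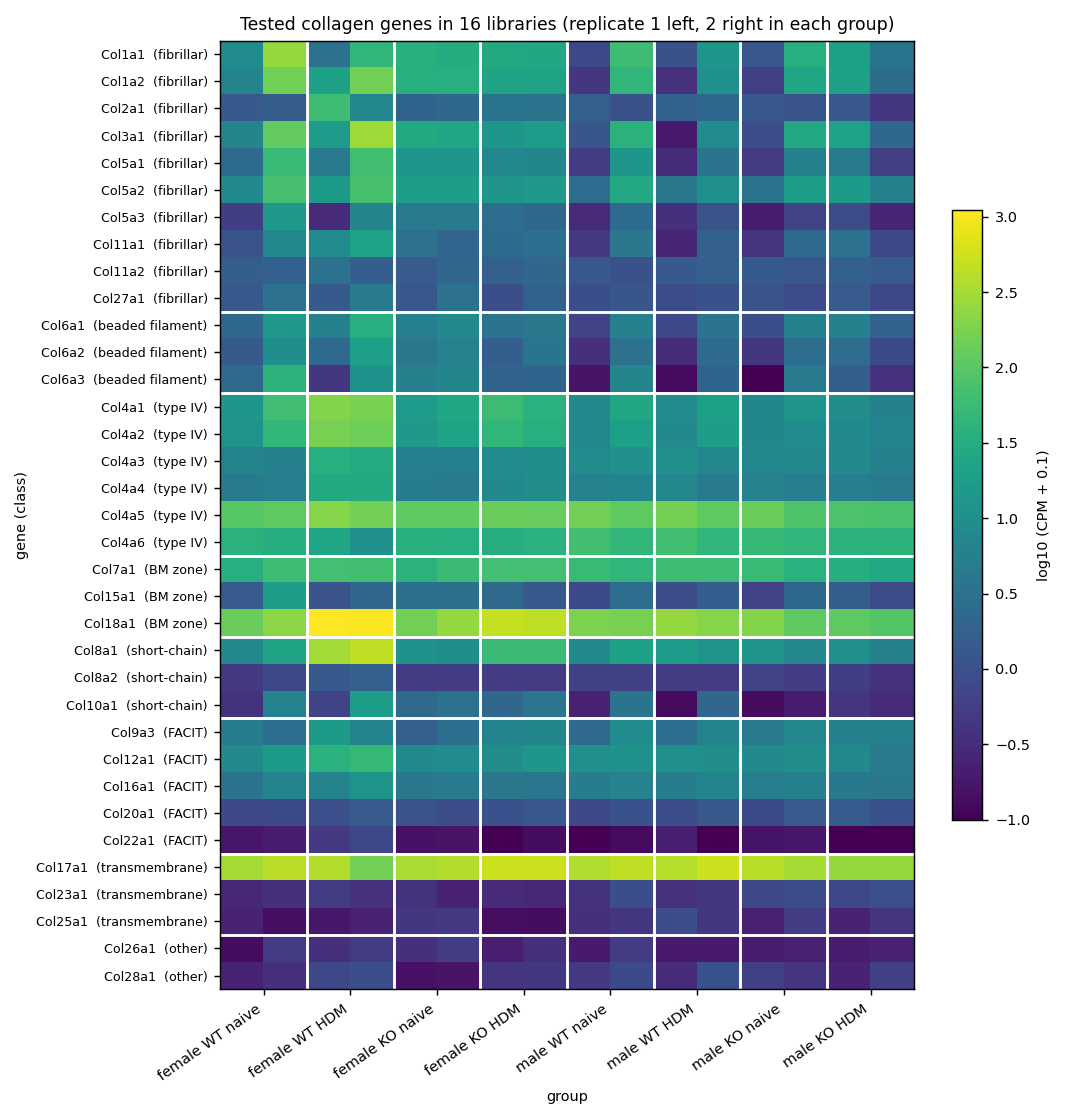
Each tile is the level of a tested collagen gene (rows, 35 genes grouped by class) in 1 library (columns, 2 replicates in each of 8 groups, KO as labelled), coloured by log10 of CPM plus 0.1. Col17a1 and Col18a1 are bright throughout, fibrillar and type VI genes differ between neighbouring replicates, and Col18a1, Col8a1 and Col4a1 to Col4a4 are brightest in both female WT HDM libraries.

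Most fibrillar collagens lay far apart between the replicates of a group, so that a change with treatment of less than several-fold could not be seen. Col1a1, a chain of type I collagen, the main collagen of connective tissue, was at 9.12 and 249 CPM in female WT naive and at 3.12 and 47.1 CPM in female WT HDM MTECs. In female MTECs labelled KO it was at 36.2 and 32.1 CPM without and 28.9 and 25.2 CPM with HDM. In male WT MTECs it was at 0.663 and 62.4 CPM without and 0.914 and 13.7 CPM with HDM, and in males labelled KO at 1.14 and 35.6 CPM without and 19.8 and 3.61 CPM with HDM. Replicates of 6 of the 8 groups were thus several-fold apart, and the naive and HDM ranges overlapped in 3 of the 4 pairs of groups. Col1a2, the partner chain of Col1a1, was at 6.68 and 151 CPM in female WT naive and 20.4 and 154 CPM in female WT HDM MTECs, and was higher in the same replicate as Col1a1 in 8 of 8 groups. Col3a1, which forms thin fibrils together with type I collagen, ran from 17.1 to 290.5 CPM within the female WT HDM pair and from 0.0945 to 9.24 CPM within the male WT HDM pair. Col5a2, a chain of the fibril-regulating type V, was at 8.14 and 71.1 CPM in female WT naive and 15.8 and 72.5 CPM in female WT HDM MTECs, and at 12.7 to 18.3 CPM in the 4 female libraries labelled KO. None of these genes was called with HDM in female WT MTECs, with log2 fold changes of -2.38 ± 1.85 for Col1a1, 0.13 ± 1.72 for Col1a2 and 1.27 ± 1.73 for Col3a1 (adjusted p = 0.326, 0.959 and 0.585, edgeR).

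This spread was measured as the size of the log2 difference between the 2 replicates of a group, taken as the median over the 8 groups. It was 3.85 for Col1a1, 3.72 for Col1a2, 4.10 for Col3a1 and 3.62 for Col5a1, whose chains start and regulate fibrils. It was 1.81 for Col5a2, 1.85 for Col5a3 and 2.40 for Col11a1. The beaded filament chains, which make the fine microfibrils around cells, had values of 2.39 for Col6a1, 2.83 for Col6a2 and 4.24 for Col6a3. Col6a3 itself was at 2.29 and 40.3 CPM in female WT naive, 0.333 and 11.5 CPM in female WT HDM and 1.82 to 6.75 CPM in the 4 female libraries labelled KO. Col6a1 was at 2.14 and 14.6 CPM in female WT naive and 5.87 and 33.7 CPM in female WT HDM MTECs. Col10a1, otherwise the collagen of hypertrophic cartilage, had a value of 2.47. Of all 15993 tested genes, at least 99.7% had a smaller median spread than each of these 11 collagens. By contrast, the median difference was 0.30 for Col17a1, 0.26 for Col18a1, 0.21 for Col7a1, 0.18 for Col4a3 and 0.16 for Col4a4. In female WT naive MTECs, 7 of the 10 tested fibrillar genes lay over 4-fold apart between replicates, compared with 0.907% of all tested genes. The female groups labelled KO had 0 of 10, against 0.281% of all tested genes in naive and 0.125% in HDM-treated cultures.

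Many markers of fibroblasts were higher in the same replicate as Col1a1. Of the 16 tested markers, 12 were so in 7 or 8 of the 8 groups, 3 in 5 or 6, and 1, S100a4, in 2. Among them, Postn, Pdgfrb, Thy1 and Dcn were higher in that replicate in 8 of 8 groups and Fbln1 in 5 of 8. The basal keratin Krt5 and the epithelial marker Epcam were higher in that replicate in 4 of 8, and the basal marker Trp63 in 5 of 8. The share of all tested genes that were so in 7 or 8 groups was not computed. The counts thus do not show a pattern particular to fibroblast markers. The summed level of the 20 fibroblast markers was 96.8 and 331 CPM in female WT naive, 186 and 588 CPM in female WT HDM, 81.6 and 156 CPM in male WT naive and 92.7 and 132 CPM in male WT HDM MTECs. In the groups labelled KO it was 147 and 150.5 CPM in naive female, 151 and 127 in HDM-treated female, 93.6 and 124 in naive male and 101 and 66.5 CPM in HDM-treated male cultures. Of the 20 markers 16 passed the filter, Postn spanned 0.252 to 43.5 CPM and Pdgfrb 0.063 to 17.8 CPM, and Tcf21 had at most 1 count in any library. Pecam1 of endothelium (at most 11 counts), Sox10 of Schwann cells (at most 3) and Acan of cartilage (at most 5) were near 0. Acta2 of smooth muscle spanned 9.51 to 441 CPM and was higher in the same replicate as Col1a1 in 7 of 8 groups. The smooth muscle and pericyte markers summed to 151 and 239 CPM in female WT naive and 379 and 543 CPM in female WT HDM MTECs. The immune markers summed to 49.0 to 115 CPM over the 16 libraries. In RNA from whole cultures a larger number of cells of a type and more RNA per cell cannot be told apart. With HDM in female WT MTECs, 5 of the 16 tested fibroblast markers rose and 2 fell, as did 1 and 2 of 3 cartilage and 0 and 3 of 6 immune markers, while 0 of 8 smooth muscle, 0 of 2 endothelial and 0 of 2 Schwann cell markers were called, beside 20.6% of all tested genes higher and 22.4% lower. The part of the fibroblast or smooth muscle markers in the levels of the fibrillar genes was not tested, nor was that of the 3T3-derived coating.

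**Figure D2:**
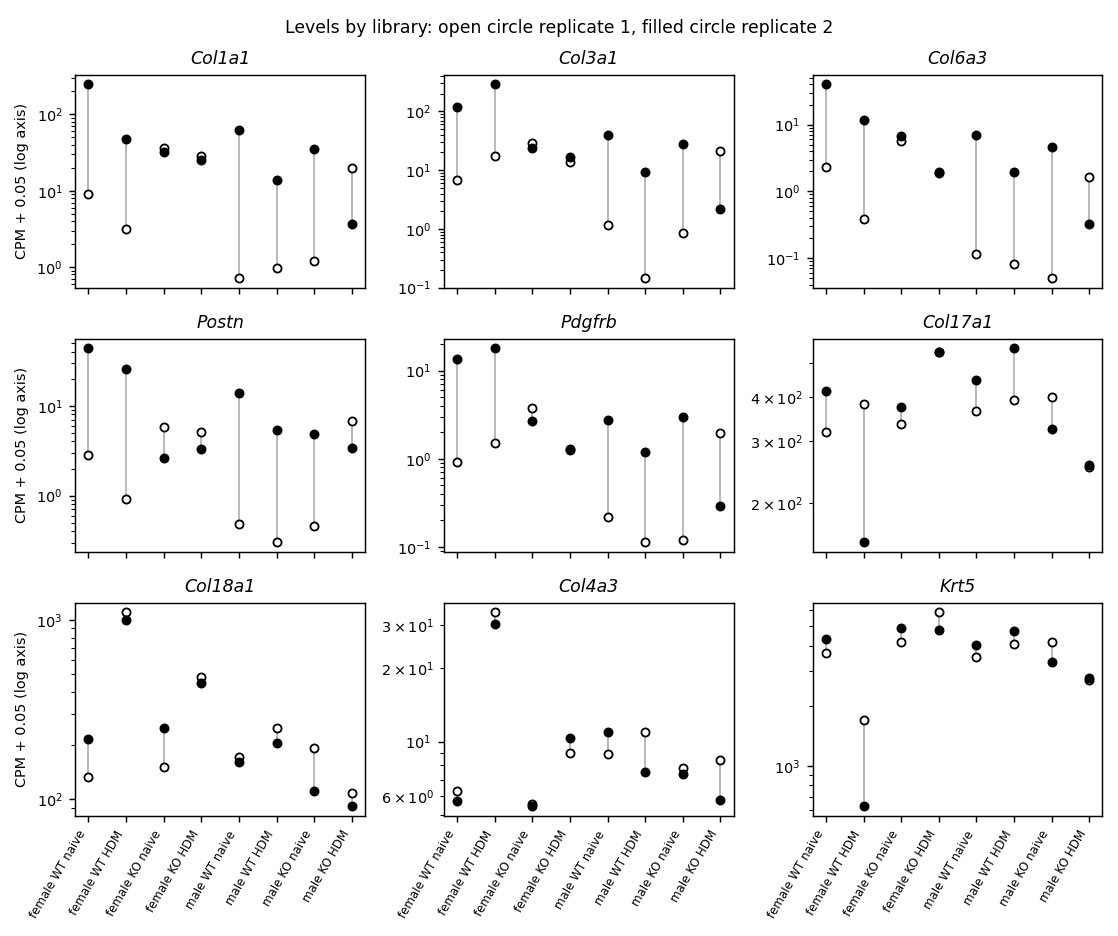
CPM plus 0.05 on a log axis for 6 collagens, the fibroblast markers Postn and Pdgfrb and the basal keratin Krt5 in the 8 groups (KO as labelled), with replicate 1 open, replicate 2 filled and a line joining them. Col1a1, Col3a1, Col6a3, Postn and Pdgfrb have long lines in the same groups, whereas the lines of Col18a1 and Col4a3 are short and their female WT HDM points stand above the rest.

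**Figure D3:**
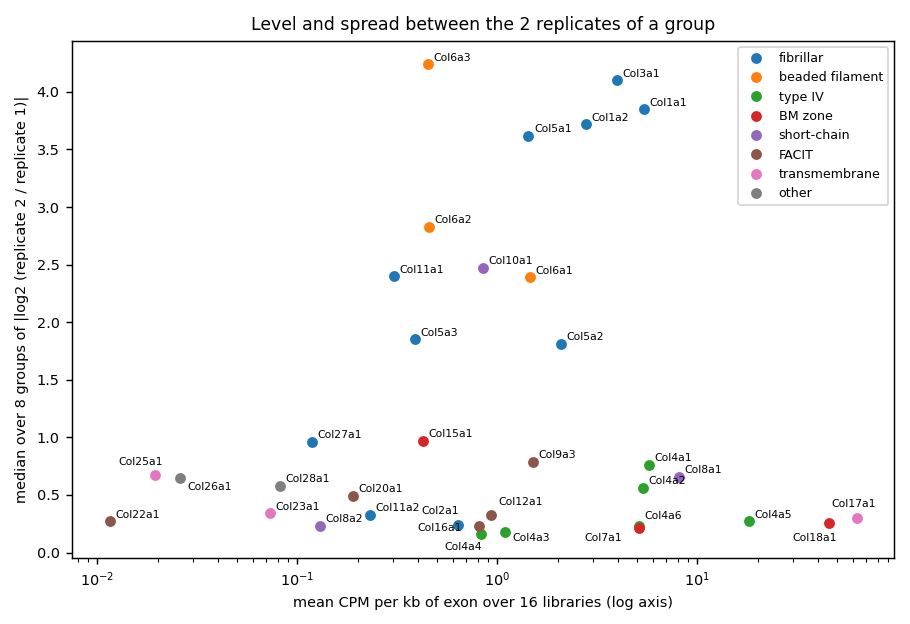
Each point is a tested collagen gene, with its mean CPM per kb of exon over 16 libraries (log axis) against the median over 8 groups of the absolute log2 ratio of the 2 replicates. Fibrillar and beaded filament genes reach 4.24, and Col17a1, Col18a1 and Col4a5 combine the highest levels with values of at most 0.30.

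In female WT MTECs, HDM raised 5 of 6 type IV genes and Col18a1 and lowered Col4a6, while Col7a1, Col15a1 and the fibrillar genes of types I, III and V were not called. With edgeR's quasi-likelihood test, 43.1% of all tested genes were called at an adjusted p under 0.05 in female WT MTECs (20.6% higher and 22.4% lower), and 13 of the 35 tested collagens were called, 12 higher and 1 lower. The collagens' share called was close to the background, and their direction was mostly upward: their median log2 fold change was 0.84, against -0.02 over all genes. By class, 6 of 6 type IV genes were called, 3 of 5 FACIT genes, 2 of 3 short-chain genes, 1 of 3 basement membrane zone genes and 1 of 10 fibrillar genes. Of the beaded filament (3), transmembrane (3) and other (2) genes tested, 0 were called. Without female WT naive replicate 1 the count was 8, and it lay between 10 and 13 without each of the other 3 libraries.

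Of all tested genes in female MTECs labelled KO, 10.4% were called (4.63% higher and 5.77% lower), and 5 collagens were called, 4 higher and 1 lower. The collagens' median log2 fold change was 0.02. This count was not stable: it fell in each fit without 1 library of this group, as did calls over all tested genes. With a fit of these 4 libraries alone the count of collagens rose to 17, and calls over all genes are not given for that fit. In male MTECs the share of all tested genes called by edgeR was 0% in WT and 0% in cultures labelled KO, and so was the count of collagens (0 of 35 in each). At an unadjusted p under 0.05 there were 0 and 2 collagens, respectively, and DESeq2 called 0 in each. Male replicates lay over 4-fold apart for 1.56% (WT naive), 0.95% (WT HDM), 1.75% (KO naive) and 0.625% (KO HDM) of all tested genes. In females these shares were 0.907%, 0.963%, 0.281% and 0.125%. The part of this spread in the male result was not tested. With no filter on low counts edgeR called 8 and 6 collagens in males, and 25 and 18 in females WT and labelled KO. Shares of all genes called without the filter are not given here, so these counts do not show a response particular to the collagens.

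**Figure D4:**
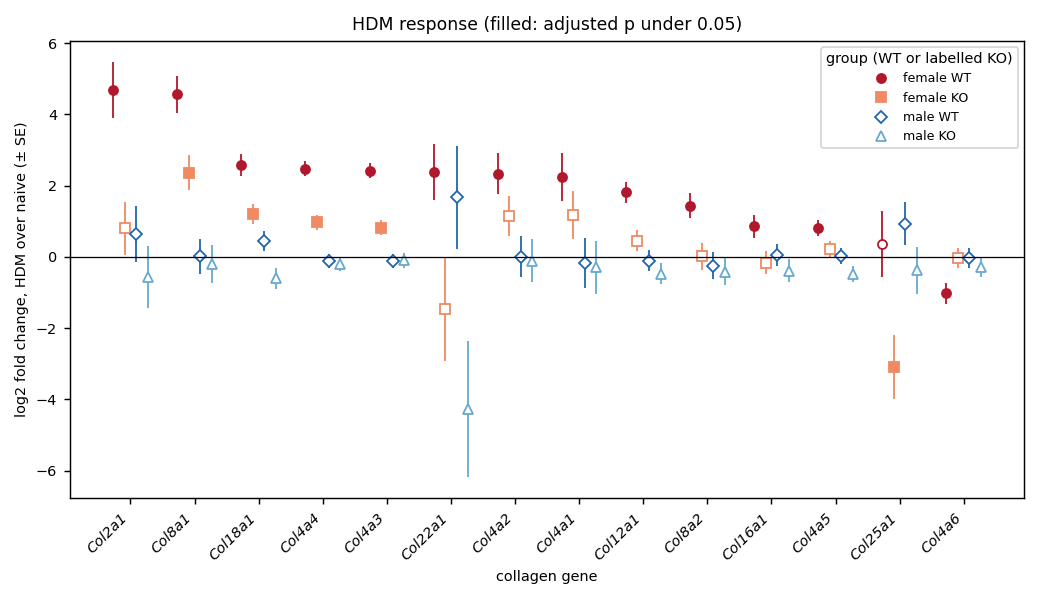
Log2 fold change of HDM over naive (± SE) for the 14 collagens called in at least 1 group, in female and male MTECs, WT or labelled KO, with filled symbols at an adjusted p under 0.05. Female WT values run from 4.69 for Col2a1 to -1.02 for Col4a6, and the male symbols are open throughout.

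Type IV chains are made from genes that sit in head-to-head pairs and are read in opposite directions from a common start region. In GRCm38, Col4a1 (chr8:11198423-11312826, minus strand) and Col4a2 (chr8:11312805-11449287, plus strand) overlap by 22 bases at their starts. Col4a3 (chr1:82586921-82722059, plus strand) and Col4a4 (chr1:82448423-82586849, minus strand) are 71 bases apart. Col4a5 (chrX:141475385-141689234, plus strand) and Col4a6 (chrX:141165403-141474076, minus strand) are 1308 bases apart. The whole stretch between the starts of Col4a3 and Col4a4 and the bases before the starts of Col4a5 and Col4a6 are shown because the first pair moved together and the last pair moved apart. They are RefSeq promoter windows of GRCm38.p6, 5′ to 3′ on the strand of the gene named last in each line, trimmed to bases outside the GENCODE genes, with capitals marking matches to the motifs below.
chr1:82586850-82586920, Col4a3 and Col4a4: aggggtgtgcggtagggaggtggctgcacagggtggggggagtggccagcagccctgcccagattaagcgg
chrX:141475169-141475384, Col4a5: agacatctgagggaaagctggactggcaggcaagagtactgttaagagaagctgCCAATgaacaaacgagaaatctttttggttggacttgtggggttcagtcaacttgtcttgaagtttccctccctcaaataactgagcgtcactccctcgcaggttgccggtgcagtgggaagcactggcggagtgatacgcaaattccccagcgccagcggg
chrX:141474077-141474326, Col4a6: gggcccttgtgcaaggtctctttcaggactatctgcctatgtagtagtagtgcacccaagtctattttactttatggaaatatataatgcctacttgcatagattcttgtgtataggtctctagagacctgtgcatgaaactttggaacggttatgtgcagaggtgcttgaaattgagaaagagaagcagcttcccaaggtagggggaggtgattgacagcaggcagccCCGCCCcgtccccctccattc
Capitals mark a match to any of 4 motifs, searched on both strands. The letters of the GC box were GGGCGG. Those of the TATA box were TATAAA. The box bound by NF-Y was searched as CCAAT. The AP-1 site was searched as TGANTCA. Among all 32851 windows of 250 bases before a start, 32.7% held the GC box, 12.4% the TATA box, 33.8% the NF-Y box and 6.75% the AP-1 site. The 35 collagen genes with a window had 38 windows, of which 22 held the GC box, 5 the TATA box, 13 the NF-Y box and 1 the AP-1 site. The stretch between Col4a3 and Col4a4 held 0 matches, although it is shorter than the windows behind these shares. The Col4a5 window held 1 NF-Y box and the Col4a6 window 1 GC box.

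Col4a3 and Col4a4, whose chains join with that of Col4a5 in the specialised network of kidney and lung basement membranes, gave the most precise response of the family. Col4a3 was at 6.25 and 5.69 CPM in naive and 33.7 and 30.3 CPM in HDM-treated female WT MTECs. Col4a4 was at 4.76 and 5.33 CPM in naive and 28.0 and 28.3 CPM in HDM-treated cultures. Both HDM libraries exceeded all 14 others for both genes, in which Col4a3 did not exceed 10.9 and Col4a4 did not exceed 9.92 CPM. The log2 fold changes were 2.42 ± 0.21 (SE) for Col4a3 (adjusted p = 6.24e-06, edgeR) and 2.48 ± 0.21 for Col4a4 (adjusted p = 6.05e-06, edgeR). Under the KO label, Col4a3 of female MTECs went from 5.50 and 5.39 to 8.92 and 10.3 CPM, and Col4a4 from 4.87 and 4.49 to 8.43 and 9.92 CPM. These gave log2 fold changes of 0.82 ± 0.21 (adjusted p = 0.0268, edgeR) and 0.97 ± 0.21 (adjusted p = 0.0136, edgeR). Without each library in turn the call of Col4a3 held in 0 of 4 fits and that of Col4a4 in 1. In males, WT and labelled KO alike, the 4 log2 fold changes of this pair lay between -0.20 and -0.10 with adjusted p of 0.842 or more in edgeR.

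Col4a1 and Col4a2, the chains of the ubiquitous type IV network, rose in the same group with a wider error. Col4a1 was at 13.3 and 63.7 CPM in naive and 197 and 169 CPM in HDM-treated female WT MTECs. Col4a2 was at 12.3 and 47.5 CPM in naive and 164 and 142 CPM in HDM-treated cultures. The naive replicates differed by several-fold, with the higher one in the library that was also high in Col1a1, yet the groups did not overlap. The log2 fold changes were 2.24 ± 0.68 for Col4a1 (adjusted p = 0.0196, edgeR) and 2.34 ± 0.57 for Col4a2 (adjusted p = 0.00605, edgeR). The call of Col4a1 was lost without naive replicate 1 (adjusted p = 0.11, edgeR), HDM replicate 1 (0.0599) or HDM replicate 2 (0.0504), while that of Col4a2 held in each such fit. Female MTECs labelled KO had Col4a1 at 16.6 and 26.5 CPM without and 58.7 and 38.3 CPM with HDM, and neither gene of the pair was called (log2 fold change 1.17 ± 0.67, adjusted p = 0.307, and 1.15 ± 0.56, adjusted p = 0.223, edgeR).

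Col4a5 and Col4a6 are neighbours on the X chromosome whose chains form the network under skin, airway and other epithelia, and HDM moved them in opposite directions in female WT MTECs. Col4a5 was at 98.4 and 108 CPM in naive and 205 and 155 CPM in HDM-treated cultures (log2 fold change 0.81 ± 0.23, adjusted p = 0.0133, edgeR). Col4a6 was at 39.0 and 32.4 CPM in naive and 24.0 and 10.9 CPM in HDM-treated cultures, and fell by 1.02 ± 0.29 on the log2 scale (adjusted p = 0.014, edgeR). Neither pair of groups overlapped. Each call was lost without 2 of the 4 libraries, in both cases without naive replicate 1 (adjusted p = 0.0851 for Col4a5 and 0.0792 for Col4a6, edgeR). Without HDM replicate 1 the adjusted p of Col4a5 was 0.104 in edgeR, and without HDM replicate 2 that of Col4a6 was 0.0938. The ratio of Col4a5 to Col4a6 counts within a library was 8.56 (95% counting interval 7.85 to 9.33) and 14.2 (12.4 to 16.2) in the female WT HDM libraries. It was between 1.90 and 4.07 in the other 14, with 2.52 and 3.32 in female WT naive. The ratios of the other pairs varied less: Col4a1 to Col4a2 ran from 0.901 to 1.35 and Col4a3 to Col4a4 from 1.04 to 1.72 over the 16 libraries. These ratios were compared after the values had been seen and were given no test, and intervals from read counts cover counting error only.

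**Figure D5:**
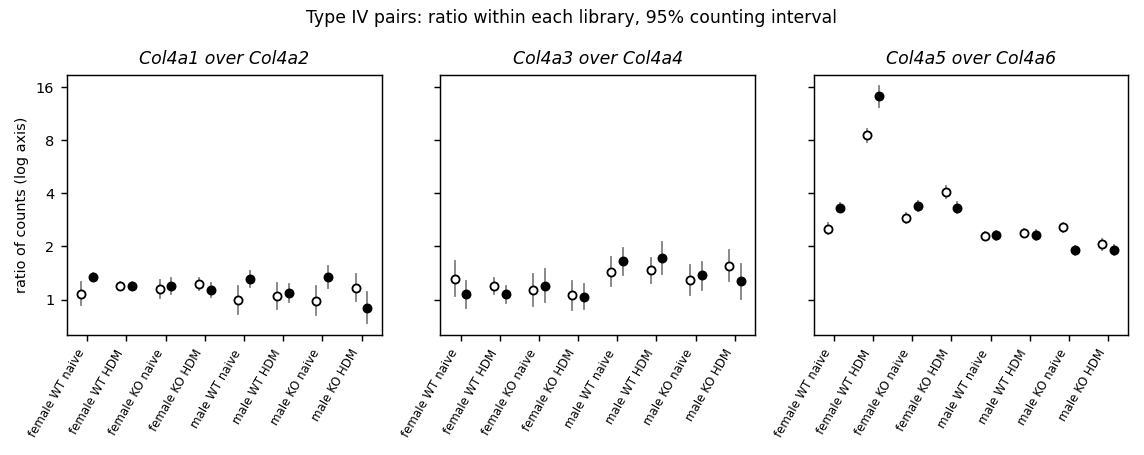
Ratio of read counts within each library for the 3 head-to-head type IV pairs (log axis), by group (KO as labelled), with replicate 1 open, replicate 2 filled and bars for the 95% counting interval. Col4a5 over Col4a6 reaches 8.56 and 14.2 in female WT HDM MTECs and stays at or under 4.07 elsewhere, and the ratios of the other pairs lie between 0.901 and 1.72.

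Col18a1, a heparan sulphate proteoglycan of basement membranes, was the collagen with the highest CPM in both female WT HDM libraries, whereas Col17a1 was higher in the other 6 HDM libraries. It was at 134 and 218 CPM in naive and 1106 and 999 CPM in HDM-treated female WT MTECs (log2 fold change 2.58 ± 0.30, adjusted p = 5.19e-05, edgeR). Labelled KO, female MTECs went from 152 and 251 CPM to 483 and 446 CPM (log2 fold change 1.20 ± 0.29, adjusted p = 0.0223, edgeR). The groups did not overlap in either genotype label, and the 8 male libraries lay between 91.4 and 251 CPM. The call in the female cultures labelled KO was lost without naive replicate 1 (adjusted p = 0.199, edgeR), HDM replicate 1 (0.0887) or HDM replicate 2 (0.102). Col17a1, the transmembrane collagen of hemidesmosomes, had a different pattern, at 318 and 416 CPM in naive and 382 and 155 CPM in HDM-treated female WT MTECs, and was not called (log2 fold change -0.45 ± 0.32, adjusted p = 0.274, edgeR). The basal markers Krt5 and Trp63 fell in the same comparison, by 1.78 ± 0.34 and 2.06 ± 0.20 on the log2 scale (adjusted p = 0.00152 and 1.66e-05, edgeR). The part of the basal markers in the level of Col17a1 was not tested.

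Col7a1, the anchoring fibril collagen, ranged from 27.6 to 69.3 CPM over the 16 libraries, and was at 34.8 and 61.8 CPM in naive and 68.6 and 66.8 CPM in HDM-treated female WT MTECs (log2 fold change 0.48 ± 0.24, adjusted p = 0.133, edgeR). Col15a1, a multiplexin related to Col18a1, was at 1.34 and 18.4 CPM in naive and 1.04 and 2.04 CPM in HDM-treated female WT MTECs. Its groups overlapped, and its log2 fold change of -2.70 ± 1.03 missed the threshold (adjusted p = 0.0529, edgeR).

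Col8a1, a short-chain collagen of the vessel wall and the cornea, had a fold change close to the largest of the family. It was at 8.25 and 23.2 CPM in naive and 301 and 455 CPM in HDM-treated female WT MTECs (log2 fold change 4.56 ± 0.52, adjusted p = 4.64e-05, edgeR). In female MTECs labelled KO it went from 11.9 and 10.2 to 57.1 and 56.6 CPM (log2 fold change 2.37 ± 0.50, adjusted p = 0.012, edgeR). Both HDM groups lay above all naive and all male libraries, the highest of which was 23.2 CPM. The male libraries were at 8.48 and 20.5 CPM in WT naive, 17.4 and 12.1 in WT HDM, 12.1 and 7.35 in naive and 11.1 and 5.78 CPM in HDM-treated MTECs labelled KO. The call in WT females held without each library in turn, and that in females labelled KO was lost without naive replicate 1 (adjusted p = 0.0959, edgeR), naive replicate 2 (0.087) or HDM replicate 2 (0.0695). The 250 bases before its start, shown because of the size of this response, carried 4 matches to the GC box on the reverse strand, in capitals, and 0 to the other 3 motifs.
chr16:57754738-57754987, minus strand, Col8a1: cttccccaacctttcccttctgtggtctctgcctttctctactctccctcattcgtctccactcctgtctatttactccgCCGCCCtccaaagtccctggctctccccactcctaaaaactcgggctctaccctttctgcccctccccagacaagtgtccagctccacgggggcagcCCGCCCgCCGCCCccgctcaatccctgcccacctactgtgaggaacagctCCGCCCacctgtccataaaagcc
Col8a2, whose chain joins that of Col8a1, was far lower, at 0.363 and 0.674 CPM in naive and 1.25 and 1.66 CPM in HDM-treated female WT MTECs (log2 fold change 1.44 ± 0.34, adjusted p = 0.00562, edgeR). Its call was lost without naive replicate 1 (adjusted p = 0.0571, edgeR) or HDM replicate 2 (0.05). Col10a1 was at 0.291 and 6.23 CPM in naive and 0.583 and 17.6 CPM in HDM-treated cultures, and its groups overlapped (adjusted p = 0.469, edgeR).

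Col12a1, a FACIT that coats type I fibrils, rose from 8.54 and 15.8 to 37.6 and 48.9 CPM with HDM in female WT MTECs (log2 fold change 1.82 ± 0.29, adjusted p = 0.000492, edgeR). The other 14 libraries reached at most 15.8 CPM, and the call held without each library in turn. In females labelled KO it was at 8.18 and 9.08 CPM without and 9.81 and 13.8 CPM with HDM and was not called (log2 fold change 0.46 ± 0.30, adjusted p = 0.37, edgeR). Col16a1, another FACIT, was at 3.52 and 6.59 CPM in naive and 6.41 and 12.1 CPM in HDM-treated female WT MTECs. Its groups overlapped, and its call (log2 fold change 0.86 ± 0.31, adjusted p = 0.0442, edgeR) was lost without naive replicate 1 (0.299) or HDM replicate 2 (0.475). Col22a1 had 2 and 5 counts in naive and 9 and 14 counts in HDM-treated female WT MTECs (log2 fold change 2.37 ± 0.79, adjusted p = 0.0322, edgeR), and its call held in 1 of 4 fits without a library. Col9a3, a chain of the cartilage FACIT type IX, was at 4.90 and 2.90 CPM in naive and 15.6 and 6.54 CPM in HDM-treated female WT MTECs, groups that did not overlap, and was not called (log2 fold change 1.52 ± 0.61, adjusted p = 0.0624, edgeR). Col20a1 stayed between 0.663 and 1.39 CPM in all 16 libraries.

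Col2a1, the fibrillar collagen of hyaline cartilage, was the only fibrillar gene called in an HDM response. It was at 1.24 and 1.44 CPM in naive and 62.0 and 7.44 CPM in HDM-treated female WT MTECs (log2 fold change 4.69 ± 0.80, adjusted p = 0.000693, edgeR). Both HDM libraries lay above the other 14, which reached at most 3.67 CPM, but the 2 replicates were themselves far apart. Without HDM replicate 1 the log2 fold change was 2.46, and the call held without each library in turn. The library with 62.0 CPM was the one with the lower Col1a1 of its pair. Of 11 cartilage markers 3 passed the filter, and these did not move one way. Comp was at 1.25 and 0.379 CPM in these libraries and at most 0.256 CPM elsewhere, and was called higher with HDM in female WT MTECs (log2 fold change 2.49 ± 0.87, adjusted p = 0.0372, edgeR), whereas Chad and Sox5 were called lower. Of the markers under the filter, Acan was at 0.208 and 0.237 CPM against at most 0.0689 elsewhere, and Matn3 at 0.25 and 0.189 against at most 0.0357 CPM, on at most 6 counts. Matn1, also under the filter, was at 0.125 and 0.0474 CPM, inside its range of 0.0404 to 0.248 CPM elsewhere. The summed level of the 11 cartilage markers was 3.37 and 1.56 CPM in these libraries. It was 2.29 and 2.76 CPM in female WT naive MTECs and up to 6.19 CPM elsewhere. The part of cartilage markers in the level of Col2a1 was not tested. Col11a2, which assembles with Col2a1 in cartilage, was at 3.20 and 1.52 CPM there and at 0.909 to 2.04 CPM elsewhere.

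The transmembrane collagens other than Col17a1 were rare. Col25a1, best known from neurons, had 12 and 12 counts in naive and 1 and 1 in HDM-treated female MTECs labelled KO and was called lower there (adjusted p = 0.0492, edgeR). The ratio of naive to HDM counts per library size was 9.39 (95% counting interval 2.33 to 82.0), and the call held in 0 of 4 fits without a library. Col23a1 ranged from 0.155 to 0.86 CPM. Of the other 2 genes, Col26a1 ranged from 0.0363 to 0.434 and Col28a1 from 0.057 to 0.958 CPM, and neither was called in an HDM response.

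Collagen levels of MTECs labelled KO and WT differed after HDM in females and under no other condition by this test. In HDM-treated females, 29.2% of all tested genes were called (14.9% higher and 14.3% lower in the libraries labelled KO), and 12 of 35 collagens were called, 2 higher and 10 lower. The collagens' median log2 difference was -1.61, against 0.00 over all genes. The lower genes were Col4a2, Col4a3, Col4a4, Col18a1, Col8a1, Col8a2, Col12a1, Col16a1, Col22a1 and Col2a1. Differences (KO minus WT, log2) were -1.73 ± 0.20 for Col4a3 (adjusted p = 0.000211, edgeR), -2.73 ± 0.48 for Col8a1 (adjusted p = 0.00195, edgeR) and -1.18 ± 0.29 for Col18a1 (adjusted p = 0.0106, edgeR). The higher genes were Col4a6 (1.00 ± 0.29, adjusted p = 0.0237, edgeR) and Col17a1 (1.00 ± 0.32, adjusted p = 0.0354, edgeR). Calls of Col4a3, Col4a4, Col8a1 and Col12a1 held without each library in turn. The call of Col18a1 was lost without KO HDM replicate 2 (adjusted p = 0.0828, edgeR) and that of Col8a2 without WT HDM replicate 2 (0.0511). Col2a1 kept its call in 2 of 4 such fits, Col4a6, Col16a1, Col17a1 and Col22a1 in 1 and Col4a2 in 0. For Col17a1 the log2 difference was 0.49 (adjusted p = 0.184, edgeR) without WT HDM replicate 2, whose 155 CPM was the lowest of the 16 libraries. For Col22a1 the counts were 23 against 1 over the 2 libraries, a ratio of 26.9 (95% counting interval 4.36 to 1106). The count of 12 became 7 without WT HDM replicate 2 or KO HDM replicate 1 and 5 without KO HDM replicate 2. In naive females, naive males and HDM-treated males the share of all tested genes called by edgeR was 0%, 0% and 0%, and 0 collagens were called in each. At an unadjusted p under 0.05 these comparisons had 1, 0 and 6 collagens, and DESeq2 called 0, 0 and 3, and with no filter edgeR called 10, 9 and 17. Shares of all genes under these settings are not given here, so such counts do not show a difference particular to the collagens. These comparisons share the naive or HDM-treated libraries with the responses above.

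Sexes differed in the same direction after HDM. Under either label the share of tested collagens called was close to that of all tested genes, and most collagens called were lower in males. In WT MTECs, 41.6% of all tested genes were called (21.3% higher and 20.3% lower in males) and 13 collagens, 2 higher and 11 lower in males. The lower genes were the 9 of the genotype comparison other than Col16a1, together with Col4a1 and Col11a1, and the higher ones were Col4a6 and Col25a1. Col4a1 differed by -3.66 ± 0.73 (adjusted p = 0.002, edgeR) and Col8a1 by -4.68 ± 0.53 (adjusted p = 4.35e-05, edgeR). Calls held without each library in turn except those of Col11a1, Col22a1 and Col25a1. In MTECs labelled KO, 25.3% of all tested genes were called (12.9% higher and 12.4% lower in males) and 9 collagens, 1 higher and 8 lower. The lower genes were Col4a1, Col4a2, Col4a4, Col4a5, Col7a1, Col8a1, Col17a1 and Col18a1, and Col23a1 was higher. Each of these calls except those of Col8a1 and Col18a1 was lost without at least 1 of the libraries compared. Col18a1 differed by -2.22 ± 0.30 (adjusted p = 0.000414, edgeR) and held its call without each library in turn, as did Col8a1. The count of 9 fell to 2 without male HDM replicate 2, to 4 without female HDM replicate 1 and to 5 without female HDM replicate 2. In naive cultures the shares of all genes called were 0.1% in WT and 0.188% in those labelled KO, and 0 collagens were called by edgeR or DESeq2. There were 5 and 5 collagens at an unadjusted p under 0.05 and 17 and 20 with no filter. Shares of all genes for these last counts are not given here, so they do not show a difference particular to the collagens. Col4a5 and Col4a6 lie on the X chromosome and were not called between the sexes in naive cultures of either label. Col4a6 was at 66.4 and 47.8 CPM in male and 39.0 and 32.4 CPM in female WT naive cultures. Labelled KO it was at 52.0 and 45.2 against 37.4 and 33.9 CPM, so the sexes did not overlap under either label. Col4a5 was at 152 and 110.2 against 98.4 and 108 CPM in WT, and overlapped under the KO label (134 and 86.0 against 109 and 115 CPM).

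The HDM responses themselves differed between groups for some members. In each comparison below the share of tested collagens called was close to that of all tested genes. Between females labelled KO and WT, 11.2% of all tested genes were called and 5.08% of all tested genes had a lower response under the KO label, and 4 collagens were called, all lower in this fit. The response of Col4a3 was lower by a log2 difference of -1.60 ± 0.29 (adjusted p = 0.00697, edgeR), and its call held in 8 of 8 fits without a library. Col4a4 differed by -1.51 ± 0.29 (adjusted p = 0.00971, edgeR), and lost its call without WT naive replicate 1 (0.0519). Col18a1 (-1.38 ± 0.40, adjusted p = 0.0494, edgeR) and Col2a1 (-3.89 ± 1.05, adjusted p = 0.0383, edgeR) kept their calls in 2 and 1 of 8 such fits, and the difference of Col2a1 was -1.66 without WT HDM replicate 1. Col8a1 (-2.19 ± 0.67, adjusted p = 0.0584, edgeR) and Col12a1 (-1.36 ± 0.41, adjusted p = 0.0551, edgeR) missed the threshold. Between male and female WT, 24.2% of all tested genes were called, 11.3% lower in males, and 7 collagens, all lower in this fit. These were Col4a3 (-2.53 ± 0.29, adjusted p = 0.000133, edgeR), Col4a4 (-2.59 ± 0.29, adjusted p = 0.000133, edgeR), Col18a1, Col12a1, Col8a1, Col8a2 and Col2a1. Calls of the first 3 and of Col12a1 and Col8a1 held in 8 of 8 fits without a library, and those of Col8a2 and Col2a1 in 2 and 3. The difference of Col2a1 was -4.05 ± 1.09 (adjusted p = 0.0197, edgeR), and -1.82 without female WT HDM replicate 1. Between males and females labelled KO, 3.56% of all tested genes were called, 1.79% lower in males, and 1 collagen, Col18a1 (-1.81 ± 0.41, adjusted p = 0.035, edgeR), whose call held in 2 of 8 such fits. Between males labelled KO and WT, 0% of all tested genes and 0 collagens were called by edgeR. There were 3 collagens at an unadjusted p under 0.05, 0 by DESeq2 and 11 with no filter. Shares of all genes for these last counts are not given here, so they do not show a difference particular to the collagens.

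Genes that fold, export, trim and bind collagen were counted in lists of their own. In female WT MTECs with HDM, 14 of 19 tested genes for hydroxylation and folding in the ER rose and 2 fell, with a median log2 fold change of 0.64. P4ha2, a collagen prolyl hydroxylase subunit (1.15 ± 0.11, adjusted p = 1.09e-05, edgeR), and Plod3, a lysyl hydroxylase that also adds sugars (0.85 ± 0.09, adjusted p = 2.4e-05, edgeR), had the smallest adjusted p, followed by P3h1, a prolyl 3-hydroxylase. Serpinh1, the chaperone HSP47, was at 205 and 258 CPM in naive and 533 and 624 CPM in HDM-treated cultures (1.32 ± 0.27, adjusted p = 0.00227, edgeR). P4hb, the shared subunit of the prolyl hydroxylases, was at 626 and 643 CPM without and 719.6 and 736 CPM with HDM and was not called (adjusted p = 0.171, edgeR).

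Of 15 genes for export from the ER, 6 rose and 5 fell. Sec23b, a coat component of the carriers, had the smallest adjusted p and fell from 639 and 492 to 155 and 139 CPM (-1.94 ± 0.20, adjusted p = 2.08e-05, edgeR), while Sec24d and Sec23a of the same coat rose (0.69 ± 0.07 and 0.50 ± 0.09, adjusted p = 3.21e-05 and 0.00113, edgeR). Of 14 tested genes for processing and cross-linking, 5 rose and 1, Pcolce, fell. Bmp1, the procollagen C-proteinase, rose by 2.07 ± 0.22 (adjusted p = 2.85e-05, edgeR), and Pcolce, which enhances it, fell by 2.61 ± 0.33 (adjusted p = 9.4e-05, edgeR). Sparc, a matrix protein that binds collagen, went from 174 and 425 to 2336 and 3320.1 CPM (3.24 ± 0.45, adjusted p = 0.000175, edgeR), and Lox, a cross-linking enzyme, from 40.5 and 72.0 to 197 and 332 CPM (2.23 ± 0.38, adjusted p = 0.000747, edgeR). Of 10 tested receptors 3 rose and 0 fell, namely the integrin chain Itgb1 (1.20 ± 0.17, adjusted p = 0.000252, edgeR), the hyaluronan receptor Cd44 (1.15 ± 0.24, adjusted p = 0.0028, edgeR) and Itga2, the chain that pairs with Itgb1 in a collagen receptor (1.16 ± 0.38, adjusted p = 0.0269, edgeR). Ddr1, a receptor kinase of epithelia, stayed between 253 and 337 CPM over the 16 libraries (0.04 ± 0.11, adjusted p = 0.787, edgeR). Of 6 tested collagenases and gelatinases 2 rose, Mmp14 (1.22 ± 0.10, adjusted p = 4.78e-06, edgeR) and Fap (2.33 ± 0.85, adjusted p = 0.0434, edgeR), and Mmp2 was not called (1.88 ± 1.19, adjusted p = 0.225, edgeR). Over the 5 lists, 30 of 64 tested genes rose and 8 fell, beside 20.6% and 22.4% of all tested genes.

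Under the KO label, 4 of these 64 genes rose and 2 fell with HDM in females, beside 4.63% and 5.77% of all tested genes. Mmp14 rose by 0.46 ± 0.10 (adjusted p = 0.0151, edgeR), and Sec23b fell by 1.34 ± 0.19 (adjusted p = 0.00211, edgeR). Serpinh1 (0.53 ± 0.27, adjusted p = 0.236, edgeR) and Lox (0.28 ± 0.38, adjusted p = 0.702, edgeR) were not called. The response of Lox differed between females labelled KO and WT (-1.95 ± 0.53, adjusted p = 0.0395, edgeR), as did that of Mmp14 (-0.77 ± 0.14, adjusted p = 0.00796, edgeR). In males, WT and labelled KO, 0 of 64 were called by edgeR, with 2 and 1 at an unadjusted p under 0.05. Counts for the 5 lists under DESeq2 were not computed.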

How the data were processed

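RNA-seq of 16 MTEC libraries was analysed from raw counts per Ensembl gene that the authors deposited in 1 table. The submitters' processing notes name Trimmomatic (version 0.36), STAR (version 2.5.2b), featureCounts of Subread (version 1.5.2), DESeq2 and the build GRCm38. The annotation release, strand setting and treatment of reads with several positions were not given in the sources used here, so reads shared by overlapping genes such as Col4a1 and Col4a2 could not be assigned by strand. Columns without a number were taken as replicate 1. Symbols came from GENCODE M21, which matched 49056 of 49315 identifiers (0.0106% of counts were on the 259 others). The members, classes and lists were chosen with earlier results of these data known. Genes named were those with the highest level per length in each class (up to 4), those called in an HDM response or its differences, the type IV pairs, and the 3 genes of each pathway list with the smallest adjusted p plus Serpinh1, P4hb, Lox, Ddr1 and Itga2. Of the cell type marker lists, which the same rule covers, counts are given and few genes named.

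Counts were filtered with filterByExpr by group, scaled with TMM and fitted with edgeR (version 4.0.16, R version 4.3.3) as 8 group means. The 15993 genes were tested two-sidedly in 16 comparisons with Benjamini-Hochberg adjustment, and called at an adjusted p under 0.05. The common biological coefficient of variation was 0.142. The SE is the fold change over the root of F. Labels state biological replicates but do not say which cultures shared a pool of tracheas. Replicates of each group differed by more than sampling noise. Alternatives were DESeq2 (version 1.42.0) size factors, total counts, DESeq2's test, no filter, a replicate block, the compared libraries alone and leaving out each library. Replicate spread used log2 of scaled counts plus 2. Both tests were run on counts simulated from the edgeR dispersions with independent replicates. That setting lacks the shared replicate differences seen here, so it does not show how the tests behave with them. Totals per library of 21860698 to 43442188 limit what can be seen of the rarest members, and 3 counts were taken as the floor. Other steps used Python (version 3.11.15) with pandas (version 2.3.3), numpy (version 2.4.6) and matplotlib (version 3.10.9).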

Additional observations from a re-analysis of the deposited data

Results flagged for a closer look

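The responses of several collagens differed between groups in the test of the difference between 2 HDM responses (edgeR). These numbered 4, 7 and 1 of 35 tested collagens in the comparisons below, in order, beside 11.2%, 24.2% and 3.56% of all tested genes. The share of collagens called was thus close to the background. The log2 differences of these collagens are collected here without an explanation. In females labelled KO compared with WT they were -1.51 for Col4a4, -1.60 for Col4a3, -1.38 for Col18a1 and -3.89 for Col2a1. In WT males compared with WT females they were -2.59 for Col4a4, -2.53 for Col4a3, -1.69 for Col8a2, -2.13 for Col18a1, -1.93 for Col12a1, -4.05 for Col2a1 and -4.54 for Col8a1. In males compared with females labelled KO the difference was -1.81 for Col18a1. Without female WT HDM replicate 1 the differences of Col2a1 were -1.66 (females) and -1.82 (WT). In each case the female WT response, or for the last the female response under the KO label, was the larger. Groups of 2 libraries were too small to look for single outlying libraries by Dixon's criterion.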

How the results depend on the processing

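Counts of called collagens depended most on the filter. With no filter on low counts they were 25 and 18 for HDM in females WT and labelled KO, 8 and 6 in males, 10, 25, 9 and 17 between genotype labels in naive females, HDM-treated females, naive males and HDM-treated males, and 17, 28, 20 and 18 between sexes in WT naive, WT HDM, KO naive and KO HDM. For the differences between responses they were 21 (females, KO against WT), 11 (males), 21 (WT, males against females) and 13 (KO). Fibrillar genes were among the added calls, and the cause was not tested. The shares of all genes called under these settings are not given here, so the counts do not show a change particular to the collagens. DESeq2's test gave 3 for HDM-treated males between labels and 4 for the difference between sexes labelled KO, and the compared libraries alone gave 17 for HDM in females labelled KO and 4 for that difference. Of the counts under the 6 settings, 76 stayed within 1.5 times the reported one and 20 did not. The 76 include comparisons with a count of 0 in both, so they overstate how far the other counts held. Of called values of single genes, 360 stayed called and 21 were lost under these settings, and 195 stayed and 109 were lost in the fits without 1 library. In both, 0 reversed.

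Leaving out 1 library gave 8 to 13 calls for HDM in WT females, 0 to 2 in females labelled KO, 5 to 10 between labels in HDM-treated females, 11 to 17 and 2 to 6 between sexes in HDM-treated WT and KO cultures, and 1 to 7, 5 to 9 and 0 to 1 for the differences of responses (females, WT, KO). The first of these 3 was 1 without female WT naive replicate 1, 2 without KO naive replicate 2, KO HDM replicate 1 or KO HDM replicate 2, and 7 without WT HDM replicate 1. The other comparisons stayed at 0. The remaining library of such a group was assumed to vary like the other groups. Where these counts changed, calls over all tested genes changed too, so the counts do not show a change particular to the collagens.

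Replicate numbers are not said to mark a shared pool, and replicate deviations of same-numbered libraries correlated between -0.164 and 0.483 over the 12 pairs of groups. With the replicate number as a block, the counts were 14 and 4 for HDM in females WT and labelled KO, 13 between labels in HDM-treated females, 17 and 10 between sexes after HDM, and 4, 10 and 1 for the differences of responses, and 0 in the other comparisons. The block took the calls of Col25a1 in females labelled KO (adjusted p = 0.0622, edgeR) and of Col18a1 in the difference between female responses (0.0583). With 2 libraries per group, members of a few counts and the fibrillar genes allow only several-fold changes to be seen.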

Other observations

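Col1a1 stood in another proportion to Col1a2 and to Col3a1 in the female WT HDM libraries than elsewhere. Type I collagen is mostly assembled from Col1a1 and Col1a2 chains, and the ratio of their counts was 0.153 (95% counting interval 0.12 to 0.195) and 0.307 (0.286 to 0.329) in these libraries. In the other 14 libraries it ran from 0.939 to 3.22, with a median of 1.37. The highest, in male WT HDM replicate 1, rests on 29 and 9 counts (95% counting interval 1.53 to 6.81). The ratio of Col3a1 to Col1a1 counts was 5.48 (4.28 to 7.01) and 6.16 (5.77 to 6.59) in the same pair and from 0.103 to 1.70 elsewhere. The lowest, in male WT HDM replicate 1, rests on 3 and 29 counts (0.0315 to 0.34). Both ratios hold within a library, so they do not depend on the scaling between libraries. They were noticed after the values had been seen, and no test was made.

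The summed level of the 44 collagens was 2721 and 3039 CPM in female WT HDM MTECs, 1568 and 1500.3 CPM in HDM-treated females labelled KO and 561 to 1772 CPM in the other 12 libraries. The fibrillar genes made up 0.949% to 38.0% of it across the 16 libraries.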
